A study of Mus musculus with 2 samples.

Results

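Mir375, Mir7b, Mir7-1 and Mir7-2 are mouse genes for the microRNAs (miRNAs) miR-375 and miR-7, which are best known from endocrine cells. The 4 genes were taken by name from the 2202 miRNA genes annotated in GENCODE M21, with earlier results of these data known. Small RNA of under 30 nt was sequenced from adrenal gland of 2-month-old male B6CASTF1/J mice, hybrids of a laboratory strain and a castaneus-derived strain. There was 1 group of 2 libraries, 1 from animal 3 (biological replicate 1) and 1 from animal 4 (replicate 2), named by animal below. The labels call them separate biological replicates but give both the same donor identifier, so the SDs below measure the spread between these 2 samples, while the p-values of the exact binomial test carry counting error only. No other tissue, age or treatment was analysed, and the series was made to evaluate RNA.

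A miRNA gene is transcribed into a hairpin, which is cut into a duplex of a 5p and a 3p arm of roughly 22 bases, and 1 arm is usually kept. The kept strand finds its target messages mainly through its seed, bases 2 to 8. miR-375 is abundant in pancreatic islets, where it restrains insulin secretion, and it also occurs in pituitary and other hormone-producing tissue. miR-7 is made from several gene copies, is high in islet and neuroendocrine cells and restrains insulin secretion as well. The adrenal gland joins a steroid-producing cortex and a medulla of neuroendocrine chromaffin cells, and whole tissue was sequenced.

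The mature sequences show how far the products of the Mir7 genes can be told apart. They were taken from RefSeq (GRCm38.p6), which matched all 4 genes, and capitals mark the seed.
miR-7b-5p (Mir7b): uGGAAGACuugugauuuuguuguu
miR-7a-5p (Mir7-1 and Mir7-2): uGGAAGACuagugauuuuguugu
miR-7b-3p (Mir7b): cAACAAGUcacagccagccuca
miR-7a-1-3p (Mir7-1): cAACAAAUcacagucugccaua
miR-7a-2-3p (Mir7-2): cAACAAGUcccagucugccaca
miR-375-5p (Mir375): gCGACGAGccccucgcacaaac
Mir7-1 and Mir7-2 encode the same 5p product, identical over all 23 bases. miR-7b-5p differs from it by A10U, counted from 1 at the 5′ end with the miR-7a base first, which lies outside the seed. The 3p products are less alike. miR-7a-1-3p and miR-7a-2-3p differ at 3 of 22 bases, and 1 of these, A7G, is in the seed. Among 1738 mature entries of the RefSeq table, the 5p seed of miR-7 occurred in 3 genes, all of them Mir7 genes. The 3p seed of Mir7b was shared with Mir7-2 alone, and the seeds of miR-7a-1-3p and miR-375-5p occurred in 1 gene each. The other mature product of Mir375 is miR-375-3p.

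The hairpins of Mir7-1 and Mir7-2 are shown because they bear on how reads could be counted. Capitals mark their longest common run, 24 bases that hold all of miR-7a-5p.
Mir7-1 hairpin (chr13:58392779-58392886, minus strand): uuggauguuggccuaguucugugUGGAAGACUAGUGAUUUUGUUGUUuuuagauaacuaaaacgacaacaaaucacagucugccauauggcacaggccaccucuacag
Mir7-2 hairpin (chr7:78888277-78888373, plus strand): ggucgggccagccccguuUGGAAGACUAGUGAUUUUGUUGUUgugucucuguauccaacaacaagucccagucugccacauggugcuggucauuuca
A read that lies wholly within the run aligns equally well to both genes. Reads aligned to several places were kept in a separate row of the deposited files and were not counted at genes. They made up 39.4% of aligned reads in animal 3 and 41.2% in animal 4, and how many of them were miR-7a-5p was not tested. The counts of Mir7-1 and Mir7-2 therefore leave out reads of their shared product and are lower limits for these genes. Their CPM (counts per 1000000 counts at miRNA genes) are uncertain, because such reads are missing from the total as well.

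The counts of Mir375 and Mir7b were checked for the same loss, while the missing reads in the total bear on their CPM as well. Every window of 18 to 24 bases of the 4 hairpins was searched in the 1005 mouse hairpins of the RefSeq table and in 141767 GENCODE M21 transcripts, on both strands. None of the windows of Mir375, for example 0 of 43 at 22 bases, occurred in another gene. For Mir7b the only match was 1 of 94 windows of 18 bases, in a transcript of Zfp704. Mir7-1 and Mir7-2 shared 3 windows of 22 bases with each other, of 87 and 76, and matched no further gene. With 1 mismatch allowed, 5 windows of Mir7b also matched another hairpin, so 1 base separates these reads from those of the miR-7a genes. The genome outside these transcripts was not searched.

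**Figure D1:**
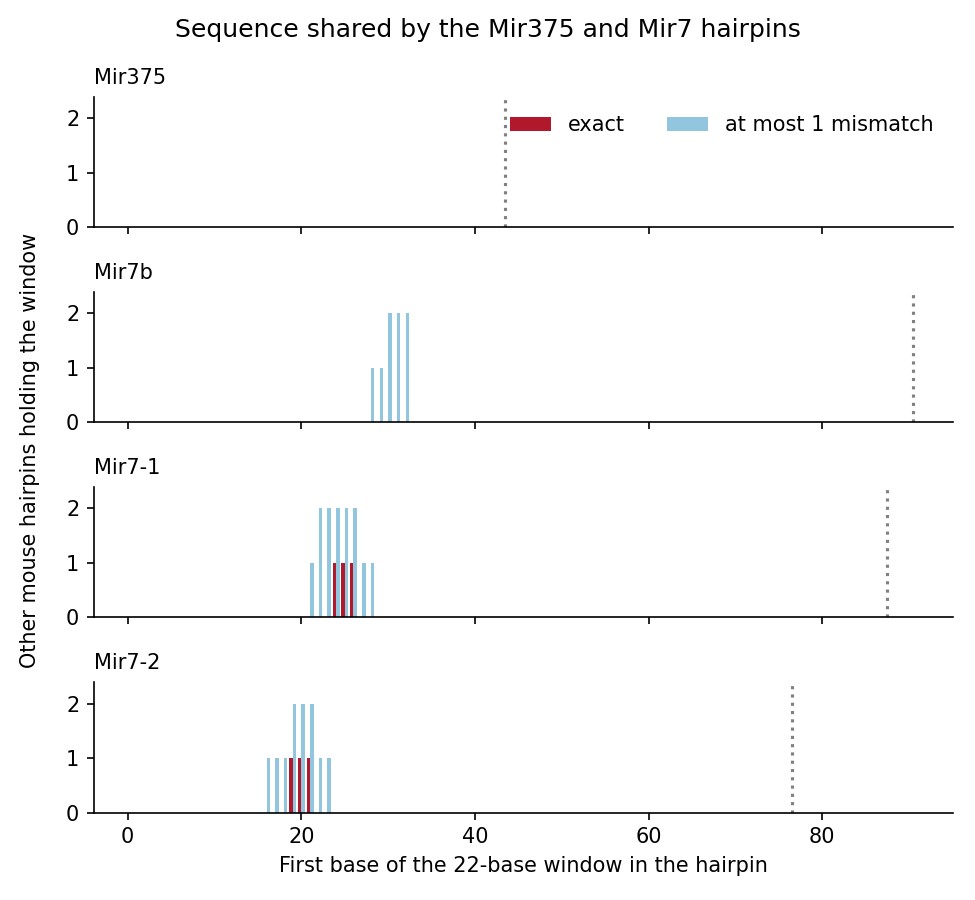
Number of other mouse hairpins in the RefSeq table (vertical axis, a count) that hold each 22-base window, by the first base of the window in the hairpin (horizontal axis). Red bars are exact matches and blue bars allow at most 1 mismatch; dotted lines mark the last window. Mir375 shows no match, Mir7b shows matches with 1 mismatch in 5 windows, and Mir7-1 and Mir7-2 show 3 exact matches each, all in the 5p arm.

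The genes lie on different chromosomes (mm10, GENCODE M21). Mir375 is on chromosome 1 at 74900658 to 74900721 on the minus strand, in no other annotated gene; the nearest is Cfap65 at 1350 bp. Its hairpin is the shortest and richest in G and C of the 4, at 64 bases and 67.2% GC. Mir7b is on chromosome 17 at 56242988 to 56243098 on the plus strand, 183 bp from the long non-coding RNA AC026385.1 and in no other gene; its hairpin has 111 bases and 46.8% GC. Mir7-1 lies inside Hnrnpk, the gene of a widely expressed RNA-binding protein, on the same strand. It touches none of its annotated exons and is thus intronic, with 12 Hnrnpk transcripts spanning it. Mir7-2 lies between genes, with Aen nearest at 7481 bp.

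Among reads counted at 1 place, Mir375 was a leading miRNA gene of the gland, and the Mir7 genes followed over a wide range of levels. The library of animal 3 held 5752428 counts at miRNA genes and that of animal 4 held 3333149, so a count of 0 would allow up to 0.522 CPM and 0.900 CPM. All 4 genes were counted far above these limits in both animals, and none had a read on the opposite strand. Intervals and limits cover counting error only, since PCR reads that carry no molecular identifiers may repeat 1 molecule.

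Mir375 had 395650 counts, or 68779.7 CPM, in animal 3 (95% Clopper-Pearson interval 68573 to 68987) and 154112 counts, or 46236 CPM, in animal 4 (46011 to 46462). Its mean was 57508 ± 15941 CPM (SD, n = 2), and it ranked 4 in each library among reads counted at 1 place. It held 2.33% of all reads of animal 3 and 1.43% of those of animal 4, unaligned reads included. The intervals do not overlap, so the 2 libraries differed by more than the counting error of reads.

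Mir7b had the most counted reads of the Mir7 genes, with 21086 counts in animal 3 (3666 CPM, interval 3616 to 3715) and 16064 in animal 4 (4819 CPM, interval 4745 to 4894). It averaged 4243 ± 816 CPM (SD, n = 2) and was higher in animal 4, the opposite order to Mir375. Mir7b ranked 40 in animal 3 and 35 in animal 4.

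Mir7-1 had 1379 counts in animal 3 (239.7 CPM, interval 227 to 253) and 966 in animal 4 (289.8 CPM, interval 272 to 309). Mir7-2 had 674 counts in animal 3 (117 CPM, interval 108 to 126) and 338 in animal 4 (101 CPM, interval 90.9 to 113). The copies averaged 265 ± 35.4 CPM and 109 ± 11.1 CPM (SD, n = 2). Their counted levels did not overlap, and Mir7-1 was the higher in both animals, though both are lower limits in counts.

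**Figure D2:**
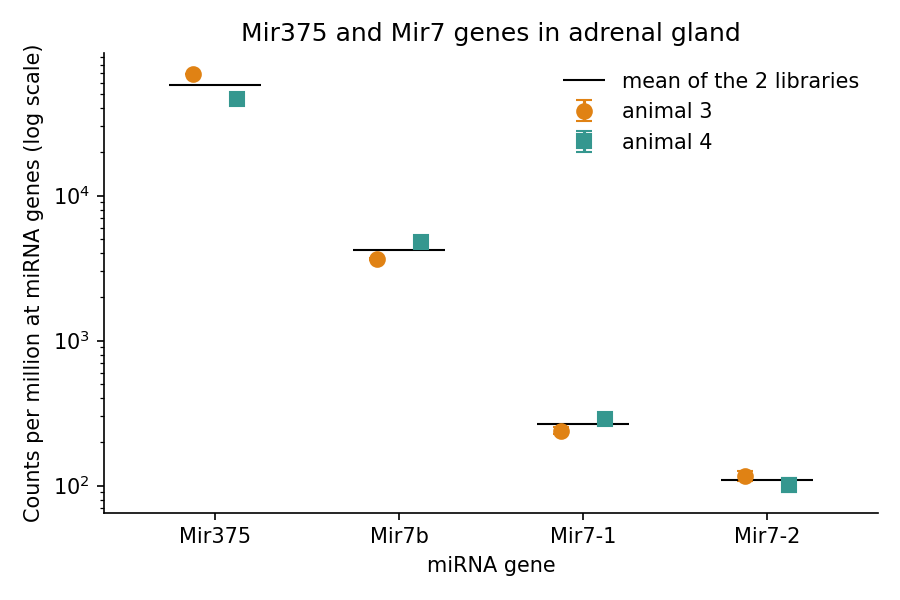
CPM at miRNA genes (vertical axis, log scale) of Mir375, Mir7b, Mir7-1 and Mir7-2 (horizontal axis) in animal 3 (orange circles) and animal 4 (teal squares), with 95% Clopper-Pearson intervals that are mostly smaller than the symbols; black lines are means of the 2 libraries. The order of counted levels was the same in both animals, from 57508 CPM for Mir375 to 109 CPM for Mir7-2 in mean.

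The order of counted levels, Mir375, Mir7b, Mir7-1, Mir7-2, held in both libraries and at each step exceeded the SD of the genes compared. Small RNA reads are whole products, not fragments in proportion to a transcript's length, so levels were not divided by hairpin length; division would widen the distance of Mir375 to Mir7b, whose mean ratio is then 24.6 in place of 14.2. The 3 Mir7 genes summed to 4022 CPM in animal 3 and 5211 CPM in animal 4, or 4617 ± 840.2 CPM (SD, n = 2). Mir7b made up 91.1% of this sum in animal 3 and 92.5% in animal 4. Mir7-1 gave 5.96% and 5.56%, and Mir7-2 gave 2.91% and 1.95%. These parts describe counted reads and leave out any miR-7a-5p reads aligned to both copies, so they do not give the division between miR-7a and miR-7b. Together the 4 genes took 7.28% of the counts at miRNA genes in animal 3 and 5.14% in animal 4.

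Ranks here are among reads counted at 1 place, and a gene with several copies may have a true rank above the one given. All 6 nearest genes by rank kept their side of Mir375 in both animals, namely Mirlet7g, Mirlet7b and Mir126a above it, and Mir378a, Mirlet7i and Mirlet7d below. Mir126a, a miRNA gene of endothelial cells, was nearest above it, with 69154 CPM in animal 3 and 65133 CPM in animal 4, and their gap in animal 3 was far smaller than the SD of Mir375. For Mir7b, which ranked 39 by mean CPM, 4 of 6 neighbours kept their side. Mirlet7f-2 and Mir21a stayed above it, Mir27b and Mir130a stayed below, and Mir382 and Mir28a changed sides. For Mir7-1 (rank 134) all 6 neighbours changed sides, which were Mir369, Mir196b, Mir193b, Mir500, Mirlet7a-2 and Mir381. For Mir7-2 (rank 175) only Mir350 kept its side, while Mir467e, Mir186, Mir136, Mir183 and Mir376b did not.

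**Figure D3:**
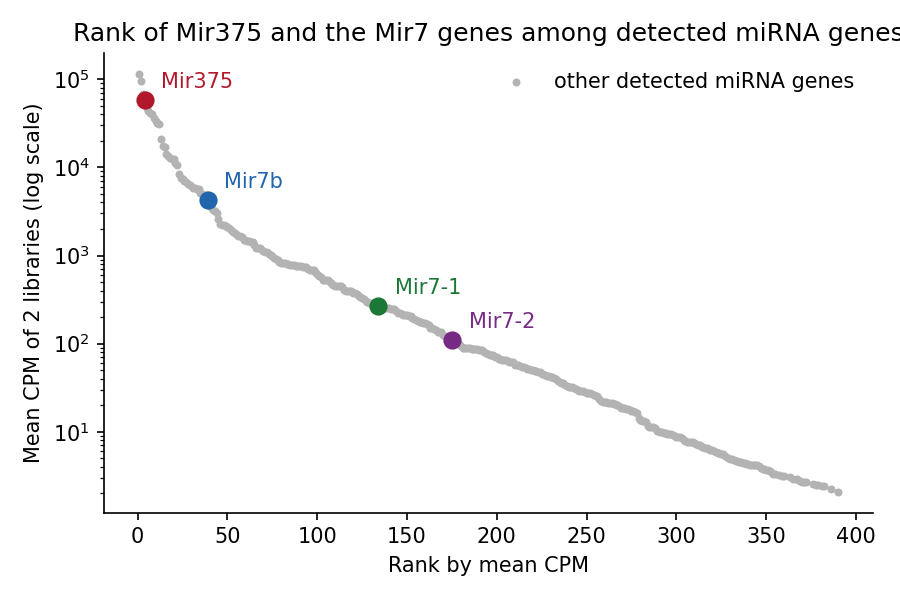
Mean CPM of the 2 libraries (vertical axis, log scale) against rank (horizontal axis) for the miRNA genes with at least 2 CPM in both libraries. Coloured points are Mir375 at rank 4, Mir7b at rank 39, Mir7-1 at rank 134 and Mir7-2 at rank 175; grey points are the other genes.

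Between the animals, Mir375 and Mir7-2 were higher in animal 3, Mir7b was lower, and Mir7-1 was called neither. This comparison sets 1 library against 1 by a two-sided exact binomial test on reads, with TMM scaling (a scaling between libraries that trims extreme genes) and Benjamini-Hochberg adjustment over all 389 genes with 10 or more counts in mean. It compares these libraries and not conditions. By it 59.1% of all tested genes differed, 30.8% higher in animal 3 and 28.3% lower, so 3 of 4 genes called is near the background. None of the 4 differed by more than 2-fold, as 14.4% of all tested genes did.

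The log2 ratio of Mir375, animal 3 over animal 4, was 0.77, a 1.71-fold difference, with an adjusted p too small for the software to represent. A larger difference in either direction was seen in 24.7% of the tested genes. Mir7b had a log2 ratio of -0.20 with a counting SE of 0.0151 (exact binomial test, adjusted p = 2.4e-37), and 71.0% of tested genes differed more. Mir7-2 had a log2 ratio of 0.41 (adjusted p = 4.45e-05, exact binomial test). Mir7-1 had -0.07 (adjusted p = 0.312, exact binomial test), which is no evidence that its level was equal. The median log2 ratio was 0.17 over the 4 genes and 0.01 over all tested genes.

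These calls depend on how the spread between animals is taken into account. With the common dispersion that edgeR estimated from the same 2 libraries, a biological coefficient of variation of 0.361, edgeR's exact test called 4 of 389 genes and none of these 4, each with an adjusted p of 1. The common dispersion took the 2 libraries as replicates, so the differences under test were part of it. Few calls were thus largely built in, and this test cannot show that the genes did not differ. TMM moved all log2 ratios up by 0.20 against scaling by total counts. By total counts Mir7-1 was called lower as well, at -0.27 (adjusted p = 1.75e-05, exact binomial test), Mir375 stood at 0.57, Mir7b at -0.39 and Mir7-2 at 0.21. This scaling called 65.6% of all tested genes, against 59.1% by TMM.

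**Figure D4:**
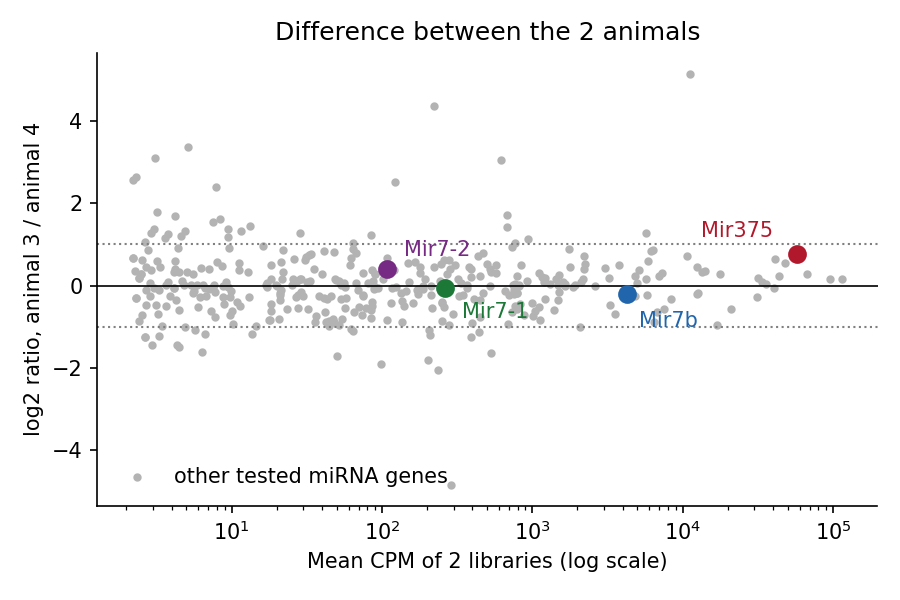
Log2 ratio of animal 3 over animal 4 after TMM scaling (vertical axis) against mean CPM (horizontal axis, log scale) for the 389 tested miRNA genes. Coloured points are Mir375 (0.77), Mir7b (-0.20), Mir7-1 (-0.07) and Mir7-2 (0.41), with bars of 1 counting SE; all lie between the dotted lines at a 2-fold difference.

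Ratios between the genes within a library need no scaling. Mir375 exceeded Mir7b 18.8-fold in animal 3 and 9.59-fold in animal 4. The first ratio is 1.96 times the second, with a 95% interval of 1.91 to 2.00 for counting error. Mir375 over Mir7-1 was 287 in animal 3 and 159.5 in animal 4, a change of 1.80 times (1.66 to 1.95). Mir375 over Mir7-2 was 587 and 456, a change of 1.29 times (1.13 to 1.47). The counts of Mir7-1 and Mir7-2 are lower limits, so their ratios are upper limits and their changes describe counted reads only. Mir375 stood higher against Mir7b in animal 3 than in animal 4.

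In counted reads, Mir7b over Mir7-1 was 15.3 in animal 3 and 16.6 in animal 4, and the interval of the change, 0.845 to 1.00, reached 1. Mir7-1 exceeded Mir7-2 2.05-fold in animal 3 and 2.86-fold in animal 4, a change of 0.716 times (0.613 to 0.835), in reads counted at 1 place. Mir7b over Mir7-2 was 31.3 in animal 3 and 47.5 in animal 4, a change of 0.658 times (0.577 to 0.751), also in counted reads. Of the 6 pairs compared, the interval left out 1 in 5. With 1 library per animal no spread within an animal enters these intervals.

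The genes with the log2 ratio nearest that of Mir375 were sought among 73 others with 1000 CPM or more in mean, over the 2 libraries. They were Mir676, with 2609 CPM in animal 3 and 1817 CPM in animal 4, Mir151, with 12630.1 CPM and 8805 CPM, and Mir379, with 7513 CPM and 4841 CPM. Their log2 ratios were 0.72, 0.72 and 0.83. This likeness rests on 2 libraries and is a description.

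The other genes listed for endocrine and islet cells were far lower than Mir375. All 9 genes of that list were detected, that is, at 2 CPM or more in both libraries. The 5 genes of it outside Mir375 and the Mir7 family summed to 529.5 CPM in animal 3 and 575 CPM in animal 4. Mir182, of the Mir183, Mir96 and Mir182 cluster known from sensory and neuroendocrine cells, led them with 319.9 CPM in animal 3 and 354 CPM in animal 4. Mir183 of the same cluster had 126 CPM and 89.7 CPM. Mir153, which in mouse has a gene within the secretory vesicle gene Ptprn2, had 35.8 CPM in animal 3 and 72.3 CPM in animal 4. Of the 9 genes 3 were called higher in animal 3, 3 lower and 3 neither by the exact binomial test, with a median log2 ratio of 0.05. Scaling by total counts gave 3 higher and 5 lower and turned the median to -0.15. By total counts this test called 65.6% of all tested genes in either direction. With TMM scaling the same test called 30.8% of all tested genes higher in animal 3 and 28.3% lower. The calls of the list by TMM are near these shares. The genes of the list thus went both ways, as all tested genes did, and Mir183 (0.68) was nearest to Mir375 in its ratio.

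Lists for the cells of the medulla and the cortex were below Mir375 in summed level of reads counted at 1 place. The 18 genes listed for neurons and chromaffin cells summed to 730.0 CPM in animal 3 and 939 CPM in animal 4, with 10 detected and 5 at 0 in both libraries. Those at 0 were the 3 Mir124a copies, Mir9-1 and Mir9-2. These and most others of this list carry copy numbers in their symbols. Reads aligned to several places were not counted at genes, so the zeros and the sum may be too low. How far such reads bear on them was not tested. Mir137 led with 405 CPM in animal 3 and 530.4 CPM in animal 4, before Mir138-1 and Mir129-2. Of 10 tested, 2 were called higher in animal 3 and 4 lower, and by total counts 1 higher and 5 lower. The 5 genes listed for steroid-producing cortex summed to 2349 CPM in animal 3 and 3245 CPM in animal 4. They were led by Mir132, Mir214 and Mir503, with 1 called higher in animal 3 and 2 lower, and by total counts 0 and 3. With TMM scaling 59.1% of all tested genes were called in either direction, so the calls of both lists by TMM are near the background. By total counts the share of all tested genes called was 65.6%. With TMM scaling the median log2 ratio was -0.14 for the neuron and chromaffin list and -0.41 for the cortex list. Both lists held genes on both sides of 0. Mir383 of the neuron and chromaffin list (0.78) was nearest to Mir375 in its ratio. Whether the amount of medulla or cortex in the samples bears on the difference of Mir375 was not tested. In whole tissue, fewer cells of a type and less RNA per cell cannot be told apart, and no miRNA gene here places Mir375 in a cell type of the gland.

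**Figure D5:**
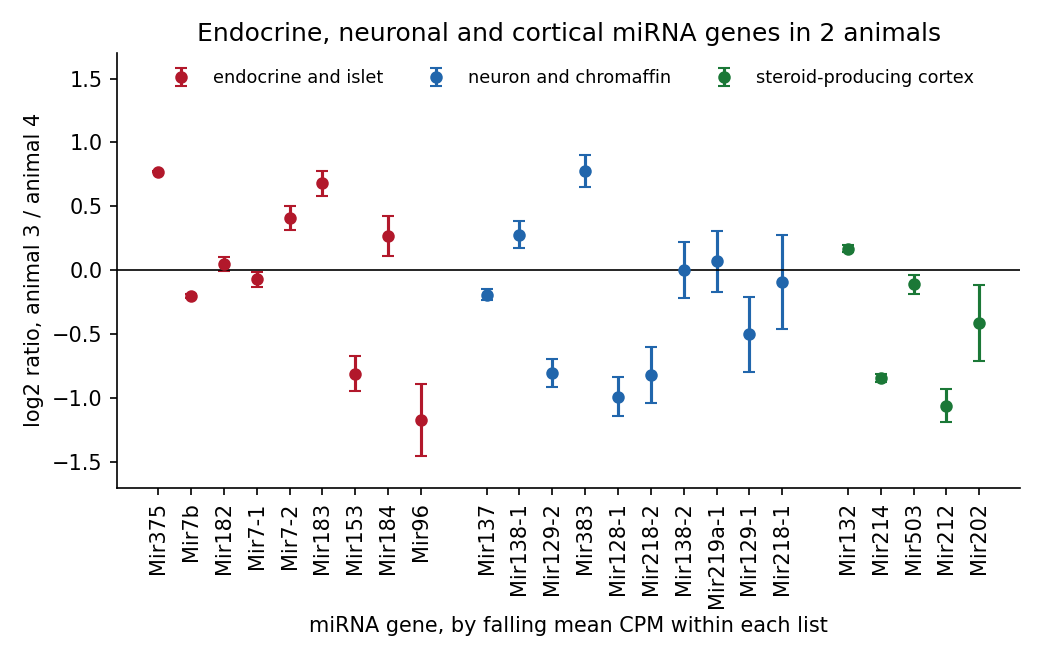
Log2 ratio of animal 3 over animal 4 after TMM scaling (vertical axis) for the tested genes of 3 lists (horizontal axis, by falling mean CPM within each list), with bars of 1 counting SE. Genes of the endocrine and islet list (red) run from 0.77 for Mir375 to -1.17 for Mir96, and the neuronal (blue) and cortical (green) lists also hold genes on both sides of 0.

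The lists for other tissues and cells were counted as follows. Of the exocrine pancreas genes, Mir216a, Mir216b and Mir216c had no count, and Mir217 had 3 counts in animal 3 and 1 in animal 4. The list summed to 0.522 CPM and 0.300 CPM. The 9 genes of gut and kidney epithelium summed to 113 CPM in animal 3 and 119.7 CPM in animal 4, led by Mir200c, Mir194-2 and Mir192, with 8 of 9 detected. Mir194-1 and Mir194-2 carry copy numbers in their symbols. Reads aligned to several places were not counted, so this sum may be too low, and by how much was not tested. The part of exocrine pancreas, gut and kidney cells in the levels of Mir375 and the Mir7 genes was not tested. Erythroid genes also differed between the animals. All 3, Mir451a, Mir144 and Mir486, were higher in animal 3, as were 30.8% of all tested genes. They summed to 22813 CPM in animal 3 and 901 CPM in animal 4. Their log2 ratios were 5.16, 3.05 and 1.23, against 0.77 for Mir375. Their part in the difference of Mir375 was not tested.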

How the data were processed

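The authors deposited raw counts of reads at each miRNA gene, with mm10 and GENCODE M21 as the references, per the text files deposited with each library. Which aligner and adapter trimming were used was not stated there or in the labels. The values are whole numbers with unequal totals, so the deposited counts carry no normalization. Each file has 3 count columns, and the one for the gene's strand was used. The 4 leading rows name no gene and were left out of totals and tests; they held 66.2% of reads in animal 3 and 69.0% in animal 4.

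CPM are counts over the total at miRNA genes times 1000000. Log2 ratios have 0.5 counts added, and calls use an adjusted p threshold of 0.05 over the 389 genes with 10 or more counts in mean. The genes and lists were chosen with earlier results of these data known. The named genes were the 4 genes, the 3 next above and below each in mean CPM, and the 3 with the ratio nearest Mir375. Up to 3 leading genes per list were named too. Mir96, Mir153, Mir183, Mir194-1, Mir383 and listed genes at 0 were named in addition. Simulated libraries with 100 genes changed 3-fold and 100 changed 1.5-fold gave 97.0% and 71.0% recovered, and 3 of 189 unchanged genes called. They held counting error only and no spread between animals, so they do not give the rate of false calls in these data. A search for shared windows was planned on the genome, and hairpins and transcripts were searched in its place. Alternatives covered strand, denominator, scaling, filters, counts added and the test. Tools were edgeR 4.0.16 and DESeq2 1.42.0 in R 4.3.3, and SciPy 1.17.1, pandas 2.3.3, NumPy 2.4.6 and matplotlib 3.10.9 in Python 3.11.15.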

Additional observations from a re-analysis of the deposited data

How the results depend on the processing

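Levels moved by more than 1 SD mainly with the denominator. Per 1000000 of all reads, mean levels were 18803 for Mir375, 1367 for Mir7b, 85.5 for Mir7-1 and 35.5 for Mir7-2. With reads counted without regard to strand, the counts of the 4 genes were the same but the total was smaller, as reads of overlapping genes drop out, and the means were 314 CPM for Mir7-1, 130.1 CPM for Mir7-2 and 5474 CPM for the Mir7 sum; the changes of Mir375 and Mir7b stayed under 1 SD. A total without erythroid genes and TMM library sizes moved no level by 1 SD. Dividing by hairpin length, chosen after seeing the data, made the ratio of Mir375 to Mir7b 24.6 in mean, by construction. In the test between libraries, DESeq2 size factors, other filters, 1 count added, unstranded reads and leaving out the erythroid genes gave 2 genes higher in animal 3 and 1 lower. Total counts gave 2 higher and 2 lower, with 65.6% of all tested genes called. edgeR's exact test with the common dispersion, which takes in the spread between the animals, called 0 higher and 0 lower, and 4 genes in all against 230. The few calls of that test were largely built in, since its dispersion came from the same 2 libraries. No ratio changed sign. Leaving out a replicate leaves no test between the libraries; with 2 values it must move a mean by less than 1 SD and says nothing about stability. No paired analysis was possible because the series holds 1 group. Shared reads of Mir7-1 and Mir7-2 were not counted, and how many there were was not tested.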

Other observations

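Liver and endothelial miRNA genes, set beside Mir375, show how it compared with markers of other cells in the samples. Mir122, the main miRNA gene of liver cells, had 690.1 CPM in animal 3 and 1331 CPM in animal 4, so Mir375 exceeded it 99.7-fold and 34.7-fold. Mir126a of endothelial cells was the one listed marker above Mir375 in both libraries. Within the cluster of Mir183, Mir96 and Mir182, Mir96 had 7.65 CPM in animal 3 and 19.8 CPM in animal 4 (log2 ratio -1.17, adjusted p = 5.45e-05, exact binomial test), while Mir183 had 0.68 (adjusted p = 5.73e-12, exact binomial test). Mir183 and Mir96 thus had ratios of opposite sign in these 2 libraries. Mir182 of the same cluster had 0.05 and was called neither (adjusted p = 0.453, exact binomial test). Mir96 rested on 44 counts in animal 3 and 66 in animal 4. The test carries counting error only, and by it 59.1% of all tested genes were called.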
